A study of Mus musculus with 4 samples.

Results

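Plasma levels of 4 mature miRNAs of the miR-192, miR-194 and miR-215 clusters were compared between AMI and Sham mice. The 4 were mmu-miR-192-5p, mmu-miR-192-3p, mmu-miR-194-5p and mmu-miR-215-5p. They were taken by name from a table of 921 miRNA entries, in which each has an entry of its own. The other arms of the same hairpins, miR-194-1-3p, miR-194-2-3p and miR-215-3p, were also in the table and are described with them. AMI mice were male C57BL/6 mice, 8 weeks old by the study's methods, in which the left anterior descending coronary artery was ligated permanently. Sham mice of the same strain, sex and age had their chest opened but the artery left untied, so both groups carry the effects of pentobarbital anaesthesia, of the opened chest and of Metacam, the pain relief given afterwards. Each group had 2 libraries, named AMI 1, AMI 2, Sham 1 and Sham 2, and values below are given in that order within each group. The sources used here state neither whether each library is a different animal nor how long after surgery the sequenced plasma was drawn. The p-values measure only the spread between these libraries, which may be technical.

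A miRNA gene is transcribed as a longer RNA that folds into a hairpin, from which Drosha and Dicer cut a short duplex with a 5p and a 3p arm. One arm, usually the same one, is loaded into Argonaute and pairs with target mRNAs mainly through its seed. miR-192 and miR-194 are transcribed together from one locus and miR-215 and miR-194 from another, and both pairs are known from the epithelia of the liver, gut and kidney. In human cells p53 induces both clusters, and miR-192 in plasma is known as a marker of liver injury.

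The mature sequences of the 7 miRNAs (RefSeq, GRCm38.p6) show which of them can share targets. They are printed 5′ to 3′ with bases 2 to 8, the seed, in capitals.
miR-192-5p: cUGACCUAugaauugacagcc
miR-215-5p: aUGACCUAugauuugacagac
miR-194-5p: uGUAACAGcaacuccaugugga
miR-192-3p: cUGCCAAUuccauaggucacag
miR-215-3p: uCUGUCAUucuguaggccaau
miR-194-1-3p: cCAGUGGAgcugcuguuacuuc
miR-194-2-3p: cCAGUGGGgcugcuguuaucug
miR-192-5p and miR-215-5p have the same seed, which no other mouse miRNA in the RefSeq table has. Over their 21 bases they differ at 3, counted from 1 at the 5′ end and written with the base of miR-192-5p first (C1A, A12U and C20A), all outside the seed. miR-194-5p has another seed and is the only mature miRNA of the table that carries it. miR-194-1-3p and miR-194-2-3p differ at 4 of 22 bases (A8G, C19U, U20C and C22G, with the base of miR-194-1-3p first). The sources used here do not say how the authors' counting assigned reads that fit more than 1 of these close sequences.

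The 4 hairpins lie in 2 loci, and the arms tell the loci apart where the shared miR-194-5p cannot. The hairpins are shown whole, with the mature arms in capitals.
Mir194-2: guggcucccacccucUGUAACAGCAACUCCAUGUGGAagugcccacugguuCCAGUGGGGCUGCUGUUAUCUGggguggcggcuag
Mir192: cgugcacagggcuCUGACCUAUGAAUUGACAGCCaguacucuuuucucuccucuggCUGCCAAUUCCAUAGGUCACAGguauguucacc
Mir194-1: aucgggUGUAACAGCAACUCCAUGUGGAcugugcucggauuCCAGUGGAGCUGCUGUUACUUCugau
Mir215: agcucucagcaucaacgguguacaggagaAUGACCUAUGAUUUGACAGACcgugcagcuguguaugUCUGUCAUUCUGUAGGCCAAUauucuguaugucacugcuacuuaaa
Mir194-2 (chr19:6264643-6264728, plus strand) lies 115 bases upstream of Mir192 (chr19:6264844-6264932, plus strand), and in GENCODE vM21 neither overlaps another gene, and Atg2a is the nearest protein-coding gene upstream. Mir194-1 (chr1:185313319-185313385, plus strand) lies 195 bases upstream of Mir215 (chr1:185313581-185313692, plus strand). On the same strand, the annotated non-coding transcript 2010103J01Rik holds Mir194-1 in an intron and Mir215 in an exon, and both hairpins are antisense to an intron of Iars2, the mitochondrial isoleucyl-tRNA synthetase. miR-194-5p is identical in Mir194-1 and Mir194-2, so its UMIs cannot be split between chromosomes 1 and 19. The 3p arms and both arms of Mir192 and Mir215 are each found in 1 hairpin only.

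Levels were measured as UMIs, random tags that mark each cDNA before amplification so that PCR copies are counted once. The libraries held 9016139 and 11461361 UMIs in AMI, against 7460687 and 4842247 in Sham. None of the 7 entries was at 0 in any library. Levels in CPM are UMIs scaled to a common total of miRNA UMIs, with TMM factors. They are therefore relative to the other miRNAs of a library, and the counts give no amount per volume of plasma. Tests are from edgeR, two-sided, over the 772 miRNAs left by its low-count filter. Adjusted p-values are by Benjamini and Hochberg's method and are read against 0.05. All 7 entries were among the 772. As a check of the labels, 4 muscle miRNAs (miR-1a-3p, miR-133a-3p, miR-208a-3p and miR-499-5p) were all called higher in AMI plasma, as were 14.8% of the 772 tested. The 4 had summed shares of 8.44% and 8.22% of miRNA UMIs in AMI, against 1.15% and 0.696% in Sham. The study places the first 2 in skeletal muscle as well, so the sum is not a heart share. The 2 it describes as enriched in heart were far rarer. miR-208a-3p had 8057 and 5471 UMIs in AMI, against 6 and 1 in Sham. miR-499-5p had 4362 and 5510 UMIs in AMI, against 177 and 55 in Sham.

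miR-192-5p, the main product of Mir192, was far more abundant in AMI plasma. It had 122339 and 198724 UMIs in the AMI libraries, against 17681 and 17272 in the Sham libraries. After scaling these were 13978 and 20614 CPM in AMI, against 2346 and 2987 CPM in Sham. Both AMI libraries lay above both Sham libraries, with the higher AMI value in AMI 2 and little spread between the Sham libraries. The mean was 17296 ± 4692 CPM in AMI and 2666 ± 453 CPM in Sham (SD, n = 2 each), a 6.49-fold rise (95% interval 3.50 to 12) which is 2.70 on the log2 scale (SE 0.41, adjusted p = 0.000878). It made up 1.37% and 1.74% of all miRNA UMIs in AMI, against 0.237% and 0.357% in Sham. In bulk plasma, more cells that release a miRNA and more miRNA released per cell cannot be told apart.

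miR-192-3p, the other arm of the same hairpin, rose as well but was much rarer. It had 654 and 719 UMIs in the AMI libraries, against 117 and 202 in the Sham libraries, or 74.7 and 74.6 CPM in AMI, against 15.5 and 34.9 CPM in Sham. The AMI libraries were nearly equal, whereas Sham 2 stood above Sham 1. The groups did not overlap, and the log2 fold change was 1.57 (SE 0.43, adjusted p = 0.0196). This call was lost without AMI 1 (log2 fold change 1.59, adjusted p = 0.0731) and without AMI 2 (1.57, adjusted p = 0.0749), within a range of 1.78e-07 to 0.0749 over its 13 alternatives, and without Sham 2 the log2 fold change was 2.23.

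miR-194-5p, which both loci encode, rose together with miR-192-5p. It had 26201 and 36498 UMIs in AMI plasma, against 6122 and 4168 UMIs in Sham plasma. In CPM it was at 2994 and 3786 in AMI, against 812 and 721 in Sham, and the groups did not overlap. The mean was 3390 ± 560 CPM in AMI and 767 ± 64.9 CPM in Sham (SD, n = 2 each), a 4.42-fold rise (95% interval 2.53 to 7.73) which is 2.14 on the log2 scale (SE 0.37, adjusted p = 0.00187).

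**Figure D1:**
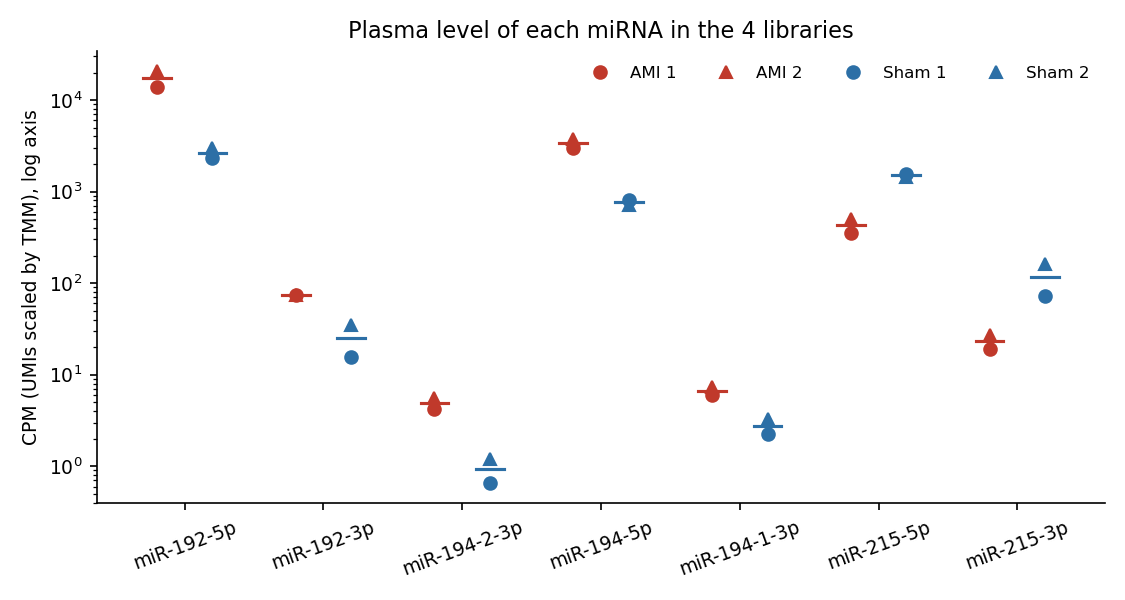
CPM of the 7 mature miRNAs in each library on a log axis, AMI in red and Sham in blue, circles for replicate 1, triangles for replicate 2 and a line at the mean of each group of 2. AMI libraries lie above Sham libraries for miR-192 and miR-194 and below them for both arms of miR-215.

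miR-215-5p, which has the seed of miR-192-5p but comes from the other locus, went the opposite way. It had 3127 and 4845 UMIs in AMI, against 11730 and 8351 UMIs in Sham, although the AMI libraries were the deeper ones. In CPM it was at 357 and 503 in AMI, against 1557 and 1444 in Sham, so that both AMI libraries lay below both Sham libraries. The mean was 430 ± 103 CPM in AMI and 1500 ± 79.7 CPM in Sham (SD, n = 2 each), and the log2 fold change was −1.80 (SE 0.37, 95% interval −2.61 to −1.0, adjusted p = 0.00472). The call was lost without AMI 1, where the log2 fold change was −1.55 (adjusted p = 0.146, the highest of a range that began at 1.86e-08), and it held in the other 12 of 13 alternatives.

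miR-215-3p, the other arm of Mir215, fell too. It had 169 and 263 UMIs in AMI, against 552 and 936 UMIs in Sham, or 19.3 and 27.3 CPM in AMI, against 73.3 and 162 CPM in Sham. Sham 2 was again the higher Sham library, and all Sham values lay above the AMI values. The log2 fold change was −2.33 (SE 0.46, adjusted p = 0.00402), or −1.68 without Sham 2. Thus both products of Mir215 were lower in AMI plasma and both products of Mir192 were higher.

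The rare 3p arms of miR-194 separate the 2 loci, and both were higher in AMI, on low counts. miR-194-2-3p, from the locus of Mir192, had 37 and 54 UMIs in AMI, against 5 and 7 UMIs in Sham (log2 fold change 2.41, SE 0.47, adjusted p = 0.00400). Both Sham counts are under 10, and miR-194-2-3p passed the low-count filter through its AMI libraries, so the filter favoured a rise. It has no value where at least 10 UMIs were required in every library, hence 12 alternatives rather than 13. Without AMI 2 its adjusted p was 0.0589, the highest over its 12 alternatives, which began at 1.57e-05. miR-194-1-3p, from the locus of Mir215, had 52 and 70 UMIs in AMI, against 17 and 19 UMIs in Sham (log2 fold change 1.27, SE 0.40, adjusted p = 0.0345). For neither arm did the groups overlap. The call of miR-194-1-3p was the least firm of the 7. It was lost in 5 of 13 alternatives, among them scaling by library size alone (0.97, adjusted p = 0.133) and the fits without AMI 1 (1.42, adjusted p = 0.108), without AMI 2 (1.11, adjusted p = 0.209) and without Sham 1 (1.00, adjusted p = 0.0895), with a range of 0.00839 to 0.209. The direction was the same in all 13.

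**Figure D2:**
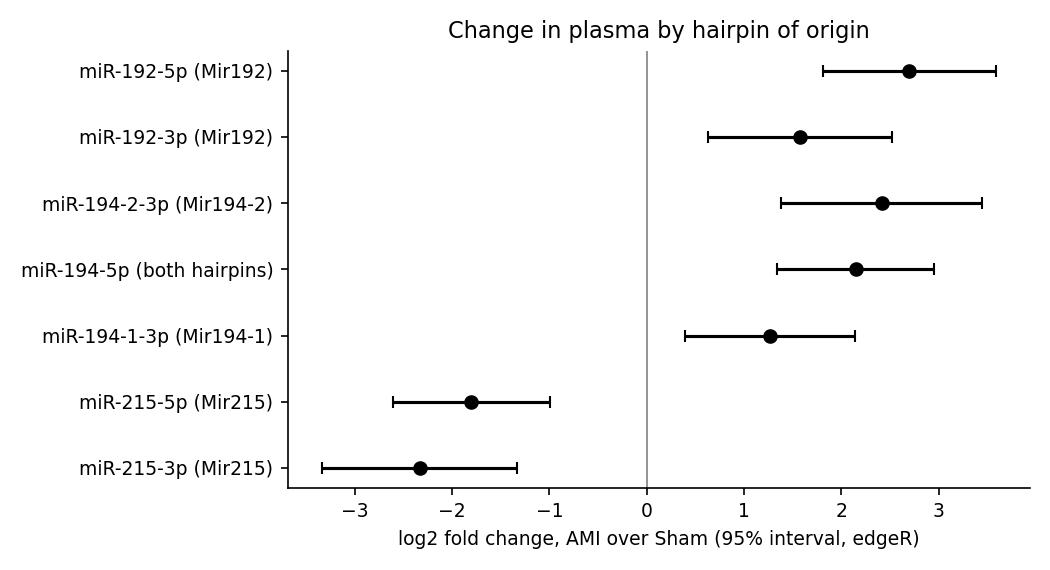
Log2 fold change of each miRNA (points, AMI over Sham) with its 95% interval from edgeR, from Mir192 at the top to Mir215 at the bottom. The 5 products of Mir192, Mir194-2 and Mir194-1 lie at 1.27 to 2.70, and the 2 products of Mir215 at −1.80 and −2.33.

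Of the 4 listed members 3 rose and 1 fell, where 14.8% of the 772 miRNAs tested were called higher in AMI and 12.7% were called lower. Among the other arms 2 rose and 1 fell, and of those that rose miR-194-2-3p passed the low-count filter through its AMI libraries. For all 7 the AMI libraries lay on one side of the Sham libraries, which was common in these data, as 35.0% of tested miRNAs had both AMI libraries above both Sham libraries and 30.4% had both below. By log2 fold change miR-192-5p ranked 25th, miR-194-2-3p 32nd, miR-194-5p 41st, miR-192-3p 86th and miR-194-1-3p 122nd from the highest of the 772. From the lowest, miR-215-3p ranked 18th and miR-215-5p 44th. By mean level over the 4 libraries miR-192-5p was 23rd of the 921 entries, miR-194-5p 60th and miR-215-5p 89th. This order is that of the AMI libraries, whereas in both Sham libraries miR-215-5p was above miR-194-5p.

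**Figure D3:**
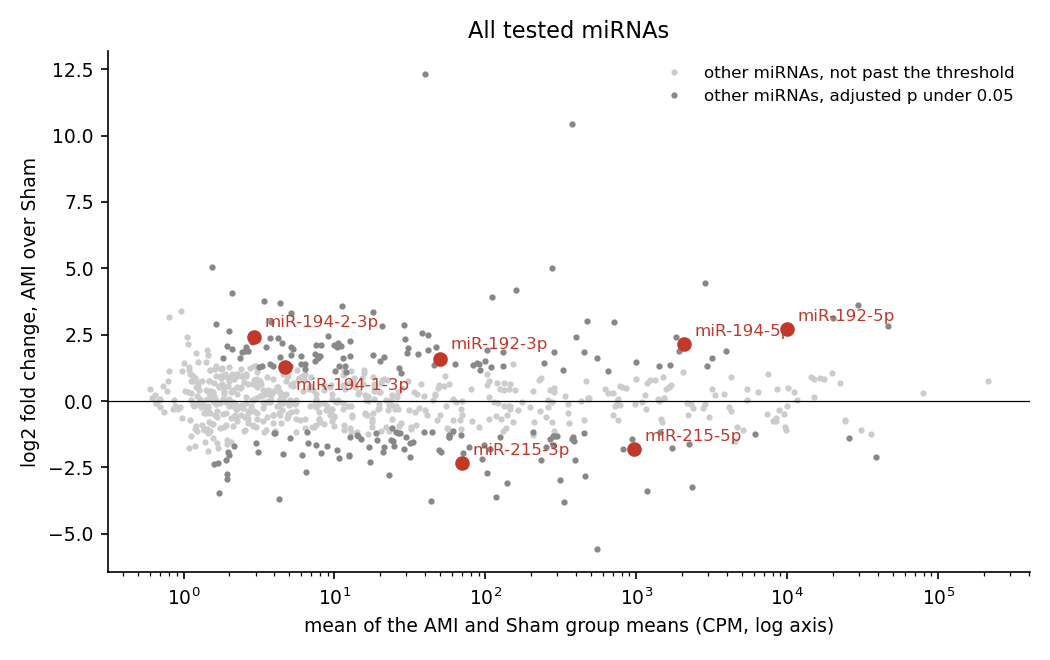
All 772 tested miRNAs, with the mean of the group means in CPM on a log axis and the log2 fold change (AMI over Sham) on the other. The 7 miRNAs are named in red, others are dark grey at an adjusted p under 0.05 and light grey otherwise. miR-192-5p and miR-194-5p sit among the abundant miRNAs that rose, and miR-215-5p and miR-215-3p among those that fell.

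Ratios within a library do not depend on how libraries are scaled, so they were used to compare partners. For each of 8 pairs the log2 ratio of UMIs was compared between groups by an exact permutation test over libraries (two-sided), whose smallest possible p with 2 against 2 libraries is 0.33. The test can therefore not pass the threshold here, and 6 of the 8 pairs reached that smallest p (0.44 adjusted over the 8 pairs). As a second measure, the edgeR fit was repeated with the libraries scaled by miR-194-5p or by miR-192-5p, which gives every fold change relative to that miRNA. Since both rose, 73.4% of the 772 miRNAs were lower relative to miR-194-5p and 81.3% were lower relative to miR-192-5p, whereas 1.55% were higher relative to miR-194-5p. Scaling by a partner was chosen after the data were seen. The intervals of these fits span fewer SE than those of the main fit, so their p-values are not comparable with the main ones.

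The seed partners miR-192-5p and miR-215-5p diverged. There were 0.0256 and 0.0244 UMIs of miR-215-5p per UMI of miR-192-5p in AMI, against 0.663 and 0.483 in Sham, so the ratio was 22.7-fold lower in AMI. Put as a share of the UMIs that carry their common seed, miR-215-5p held 2.49% (exact 95% interval 2.41 to 2.58) and 2.38% (2.31 to 2.45) in AMI plasma, against 39.9% (39.3 to 40.4) and 32.6% (32.0 to 33.2) in Sham plasma. These intervals cover counting error only. Relative to miR-192-5p, miR-215-5p had a log2 fold change of −4.52 (95% interval −5.73 to −3.32, adjusted p = 9.32e-12 from edgeR). That fit was chosen after the data were seen and called 81.3% of the 772 miRNAs lower. By the exact permutation test over libraries the p for this ratio was 0.33, the smallest possible here. The groups were far apart in this ratio and the libraries of a group close together. miR-192-5p and miR-215-5p together came to 14335 and 21117 CPM in AMI, against 3903 and 4431 CPM in Sham, so the seed as a whole was more abundant in AMI and nearly all of it was miR-192-5p.

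miR-192-5p was next compared with miR-194-5p, its partner on chromosome 19, whose UMIs can also come from chromosome 1. There were 4.67 and 5.44 UMIs of miR-192-5p per UMI of miR-194-5p in AMI, against 2.89 and 4.14 in Sham. The AMI ratios were the higher ones, but the gap between AMI 1 and Sham 2 was smaller than the gap between the Sham libraries. Relative to miR-194-5p, the log2 fold change of miR-192-5p was 0.52 (95% interval −0.28 to 1.33, adjusted p = 0.230 from edgeR), so a difference of the partners was not detected, and the interval leaves room for one of either sign. The locus-specific miR-194-2-3p stood at 0.000302 and 0.000272 UMIs per UMI of miR-192-5p in AMI, against 0.000283 and 0.000405 in Sham, and the groups overlapped. Its log2 fold change relative to miR-192-5p was −0.26 (95% interval −1.74 to 1.22, adjusted p = 0.739), an interval kept wide by its low counts.

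miR-215-5p was also compared with miR-194-5p, its partner on chromosome 1, whose UMIs can also come from chromosome 19. miR-215-5p stood at 0.119 and 0.133 UMIs per UMI of miR-194-5p in AMI, against 1.92 and 2.0 in Sham, which makes it rarer than miR-194-5p in AMI plasma and more abundant in Sham plasma. The ratio was 15.6-fold lower in AMI, with a log2 fold change relative to miR-194-5p of −3.96 (95% interval −4.88 to −3.04, adjusted p = 3.10e-12 from edgeR). This fit, too, was chosen after the data were seen, and it called 73.4% of the 772 miRNAs lower. By the exact permutation test the p for the ratio was 0.33, the smallest possible. miR-194-1-3p, which only chromosome 1 encodes, gives a comparison within this locus without the shared arm. Per UMI of miR-215-5p there were 0.0166 and 0.0144 UMIs of miR-194-1-3p in AMI, against 0.00145 and 0.00228 in Sham, a ratio 8.54-fold higher in AMI. This rests on 17 and 19 UMIs of miR-194-1-3p in the Sham libraries, and the exact permutation test cannot pass the threshold here.

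The 3p arms of miR-194 were also set against each other. miR-194-1-3p made up 58.4% (exact 95% interval 47.5 to 68.8) and 56.5% (47.3 to 65.3) of the UMIs of both 3p arms in AMI, against 77.3% (54.6 to 92.2) and 73.1% (52.2 to 88.4) in Sham. As a ratio, there were 1.41 and 1.30 UMIs of miR-194-1-3p per UMI of miR-194-2-3p in AMI, against 3.40 and 2.71 in Sham, a log2 difference of −1.17. Both AMI ratios lay below both Sham ratios, but the exact permutation test cannot pass the threshold here. The Sham libraries held only 22 and 26 such UMIs, and their wide intervals overlap those of the AMI libraries.

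**Figure D4:**
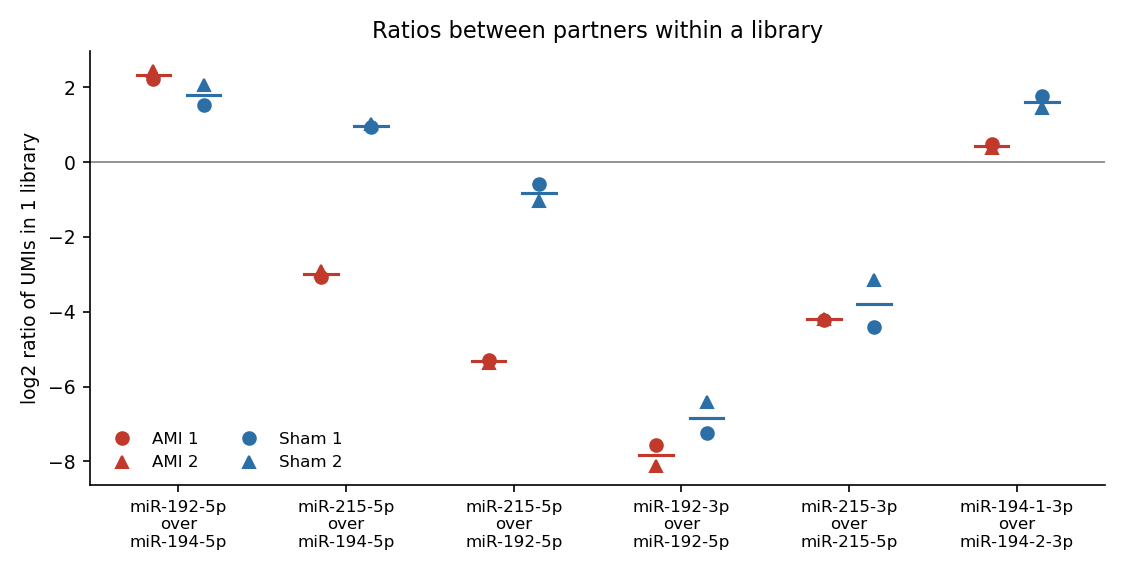
Log2 ratio of the UMIs of 2 miRNAs within each library, AMI in red and Sham in blue, circles for replicate 1, triangles for replicate 2 and lines at the group means. The ratios of miR-215-5p to miR-194-5p and to miR-192-5p are 15.6-fold and 22.7-fold lower in AMI, while the ratios of miR-192-5p to miR-194-5p and of the arms of one hairpin lie closer together.

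The 5p arm was the major product of both Mir192 and Mir215 in every library. miR-192-3p made up 0.532% and 0.361% of the UMIs of its hairpin in AMI, against 0.657% and 1.16% in Sham. The share was lower in both AMI libraries, but AMI 1 (exact 95% interval 0.492 to 0.574) and Sham 1 (0.544 to 0.787) overlapped within counting error. Relative to miR-192-5p, miR-192-3p had a log2 fold change of −1.03 (95% interval −2.12 to 0.05, adjusted p = 0.0740 from edgeR), which did not pass the test. For Mir215 the 3p share was 5.13% and 5.15% in AMI, against 4.49% and 10.1% in Sham, so the AMI values lay between the Sham values (exact permutation p = 1.0, two-sided). In both hairpins Sham 2, the shallowest library, had the highest 3p share.

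Lists of miRNAs known from hepatocytes, from gut and other epithelia and from kidney, and of miRNAs tied to p53, were set beside the clusters. Of the 6 hepatocyte miRNAs 4 rose and 0 fell (1 fell before adjustment of the p-values and 1 by DESeq2). Their median log2 fold change was 2.35, against 0.04 over all tested miRNAs, of which 14.8% rose and 12.7% fell. The list holds both arms of miR-122, miR-802 and miR-148a, so its entries are not independent. miR-802-3p, at 45 and 40 UMIs in AMI, against 6 and 7 in Sham, passed the low-count filter through its AMI libraries. miR-122-5p, the most abundant miRNA of hepatocytes, was at 67853 and 95964 CPM in AMI, against 5846 and 17423 CPM in Sham (log2 fold change 2.82, or 2.23 without Sham 1 and 3.78 without Sham 2). miR-122-3p (2.87), miR-802-5p (2.47) and miR-802-3p (2.22) were the other 3 that rose, and the call of miR-802-3p was lost without AMI 1 (2.07, adjusted p = 0.0620, the highest of a range from 4.73e-05). miR-148a-3p, abundant in liver and many other tissues, was at −0.75 (adjusted p = 0.17 from edgeR, with a range of 0.0383 to 0.794 over its alternatives) and miR-148a-5p at −0.93 (adjusted p = 0.0860). Set directly against miR-192-5p, miR-122-5p had a log2 fold change of 0.19 (95% interval −0.82 to 1.21) and miR-802-5p one of −0.24 (−1.32 to 0.83). Neither passed the test.

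Of 11 miRNAs of gut and other epithelia, 0 rose (0 before adjustment and 0 by DESeq2) and 3 fell (5 by DESeq2), with a median log2 fold change of −0.31. Over all tested miRNAs 14.8% rose and 12.7% fell with edgeR. The list is not of gut alone, so these counts and the median do not give the course of gut miRNAs. miR-203-3p, known from stratified epithelium, had 5882 and 8650 UMIs in AMI, against 6915 and 25757 UMIs in Sham, and its log2 fold change of −1.78 rested on Sham 2 (−0.25 without it, adjusted p = 0.603, in a range from 2.60e-13 to 0.603). Its call was lost in 6 of 13 alternatives, among them the fits without AMI 1 (−1.56) and without AMI 2 (−2.0). It had the highest mean UMIs of the list only through Sham 2, and in the other 3 libraries miR-200b-3p had more. miR-200b-3p, which represses the transcription factors Zeb1 and Zeb2, was at −0.29 (adjusted p = 0.578). The other 2 that fell, named after their values were seen, were miR-200c-3p (−1.44) and miR-183-5p (−1.65). Without AMI 1 or AMI 2 both calls were lost, at −1.46 and −1.40 for miR-200c-3p and −1.36 and −1.96 for miR-183-5p. In all, miR-200c-3p was lost in 3 of 13 alternatives and miR-183-5p in 2.

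Of 7 miRNAs known from kidney, which other tissues also express, 1 rose and 2 fell (2 and 3 by DESeq2), with a median of 0.44, where 14.8% of all tested miRNAs rose and 12.7% fell. The 2 with the highest mean UMIs over the 4 libraries were miR-30a-5p (log2 fold change 0.82, adjusted p = 0.117) and miR-10a-5p (0.44, adjusted p = 0.384). Neither passed the test with edgeR, while miR-30a-5p passed with DESeq2 (0.76, adjusted p = 0.0202, the lowest of a range to 0.553). miR-10b-5p, which was above miR-10a-5p in both Sham libraries, was at −0.68 (adjusted p = 0.171). The 1 that rose was miR-30a-3p (1.12, adjusted p = 0.0429), which was lost in 4 of 13 alternatives, among them library size alone (0.85, adjusted p = 0.0968) and the fits without AMI 1 (1.37) and without AMI 2 (0.86), in a range of 0.000321 to 0.464. miR-196a-5p (−5.56) and miR-196b-5p (−2.81), both encoded in Hox clusters, fell (miR-196a-5p was at −4.82 without Sham 2), and these 2, miR-10b-5p and miR-30a-3p were named after their values were seen. Of 9 miRNAs that p53 is known to induce or to help process, 1 rose and 1 fell (the same counts by DESeq2), with a median of 0.51. miR-16-5p, which red blood cells also hold in large amounts, was at 0.74 (adjusted p = 0.233), miR-145a-5p, a miRNA of smooth muscle, rose by a log2 fold change of 1.63 (adjusted p = 0.0106) and miR-34b-5p, the 1 that fell, was at −1.39 (adjusted p = 0.0265). Both of these calls were lost without AMI 1 (1.53 and −1.53) and without AMI 2 (1.74 and −1.25), and that of miR-34b-5p also without Sham 2 (−1.0) and with scaling by 6 references (−1.23, adjusted p = 0.0643), in all in 5 of its 13 alternatives (range 0.000184 to 0.227). miR-16-5p passed the test without Sham 1 (1.24, adjusted p = 0.0160, in a range to 0.753).

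**Figure D5:**
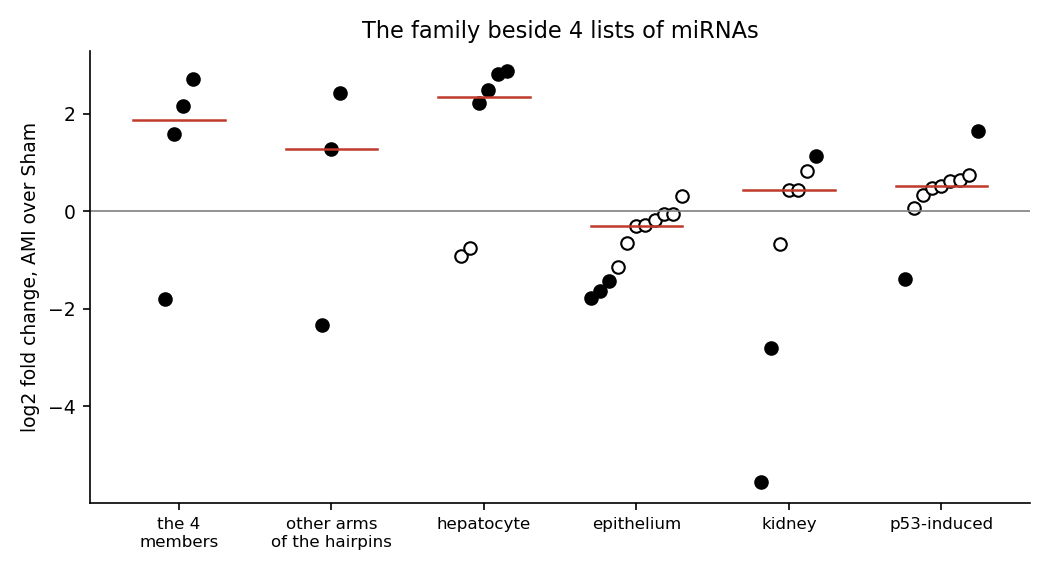
Log2 fold change (AMI over Sham) of each miRNA in 6 groups, filled circles for an adjusted p under 0.05 and open circles otherwise, with a red line at the median. Of the 4 tissue and pathway lists the hepatocyte list has the highest median (2.35) and the epithelial list the lowest (−0.31).

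Red blood cell markers were read in the same libraries. The 6 red-cell miRNAs together took 36.5% and 35.5% of miRNA UMIs in AMI, against 39.1% and 25.3% in Sham, so the AMI shares lay between the Sham shares, with none of the 6 at 0 in a library. miR-16-5p had the most UMIs of the 6 in every library and weighs most in these shares. None of the 6 passed the test (before adjustment 0 were higher and 1 lower at 0.05, as with DESeq2). Over all tested miRNAs 14.8% were called higher and 12.7% lower with edgeR. The 1 that was lower before adjustment was miR-451a, at 23872 and 18731 CPM in AMI, against 68907 and 32851 CPM in Sham. Its log2 fold change was −1.26 (adjusted p = 0.0536 from edgeR), and the groups did not overlap. The log2 ratio of miR-451a to miR-23a-3p, used to judge haemolysis, was 1.02 and 0.52 in AMI, against 3.02 and 1.56 in Sham, lower in both AMI libraries. The 6 hepatocyte miRNAs took 7.10% and 8.74% of miRNA UMIs in AMI, against 1.64% and 3.26% in Sham, and none of them was at 0. This sum is not a liver share. miR-148a-3p, which many other tissues hold, had 77886 UMIs in Sham 1, against 44052 UMIs of miR-122-5p in the same library. The part of red cells or of liver RNA in the changes of miR-192, miR-194 and miR-215 was not tested.

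The miRNAs whose levels followed the members most closely were found over the 4 libraries among 354 tested miRNAs with at least 100 UMIs on average and none at 0, by the root mean square distance between log2 CPM centred on each miRNA's own mean. The 3 nearest to miR-192-5p were miR-802-5p (distance 0.33 on the log2 scale), miR-194-5p (0.34) and miR-1843a-3p (0.35). Its own other arm, miR-192-3p, was 26th at 0.61. Nearest to miR-194-5p were miR-224-5p (0.16), miR-130a-3p (0.21) and miR-802-5p (0.22), with miR-192-5p in 10th place. Nearest to miR-215-5p were miR-369-3p (0.085), a miRNA of the imprinted Dlk1-Dio3 region, miR-542-3p (0.16), encoded beside miR-322 and miR-503 on the X chromosome, and miR-872-5p (0.19). miR-369-3p had 90 and 127 UMIs in AMI, against 286 and 222 UMIs in Sham, a log2 fold change of −1.70. From miR-215-5p the distance was 0.49 to miR-215-3p (60th), 1.98 to miR-194-5p and 2.26 to miR-192-5p. With only 4 libraries many miRNAs share such a pattern, and the distances are a description without a test.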

How the data were processed

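Small RNA from plasma was sequenced in 4 libraries, 2 from AMI and 2 from Sham mice. The authors deposited raw counts, not normalized, as UMI counts and read counts for 921 miRNA and 94 piRNA entries. The submitters name bcl2fastq 2.18.0.12 and the build mm10, while aligner, counter and annotation were not given in the sources used here. A line with no values was left out, and piRNA entries were not used. For the library pairs AMI 1/Sham 2 and AMI 2/Sham 1, no entry has its larger UMI count between 1 and 9, and 82 and 84 entries are at 0 in both libraries. In the other pairs 71 to 169 entries have a larger count of 1 to 9. Low counts thus appear to be missing by crossed pairs, and the cause was not tested. None of the 7 miRNAs described is at 0, but this does not show that they are untouched by such missing counts. miR-194-2-3p is under 10 UMIs in both Sham libraries, and in each crossed pair only its AMI count is above 10.

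miRNA UMI counts were tested with edgeR 4.0.16 in R 4.3.3 (filterByExpr, TMM, robust quasi-likelihood fit, Benjamini-Hochberg over 772 miRNAs, threshold 0.05). Log2 ratios within libraries were compared by exact permutation in scipy 1.17.1 and shares given exact (Clopper-Pearson) 95% intervals. As alternatives, DESeq2 1.42.0 was run, libraries were scaled by size alone, RLE or 6 reference miRNAs, the filter was dropped or set to a minimum of 10 UMIs per library, reads replaced UMIs, the replicate number served as a block, and libraries were left out in turn. The 6 references are those the study took as stable from its sequencing of AMI and Sham plasma, so that scaling is not an independent check. A crossed block and scaling by miR-194-5p or miR-192-5p were chosen after seeing the data, as were 4 of the 8 ratios. The procedure was tested on simulated data with the same dispersion for every miRNA. It called 19 of 57 changes of 2-fold in the right direction, 66 of 74 of 4-fold and 66 of 69 of 8-fold. Of its 155 calls, 4 were of unchanged miRNAs.

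The miRNAs named are the 4 members, the other arms of their hairpins, the 3 nearest patterns of 3 members, and up to 2 of the most abundant per list, apart from those said to be named later. Members and lists were chosen with earlier results of these data known. Sequences and their coordinates are from RefSeq (GRCm38.p6) and all 7 names matched.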

Additional observations from a re-analysis of the deposited data

How the results depend on the processing

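Over 13 alternatives each, the 4 members kept their direction, and 49 of 52 comparisons kept their side of the threshold. Log2 fold changes ranged from 2.39 to 2.97 for miR-192-5p, from 1.86 to 2.33 for miR-194-5p, from −2.09 to −1.55 for miR-215-5p and from 1.09 to 2.23 for miR-192-3p. The 3 lost calls came from leaving out a library, which leaves a group with 1 library that is assumed to vary like the other group: miR-192-3p without AMI 1 (1.59) and without AMI 2 (1.57), and miR-215-5p without AMI 1 (−1.55). Leaving out each library gave 1.09 to 2.23 for miR-192-3p and −2.07 to −1.55 for miR-215-5p. It gave 47 to 165 miRNAs higher (47 without AMI 1 and 66 without AMI 2) and 29 to 140 lower (32 without AMI 1 and 29 without AMI 2), where all 4 libraries gave 114 and 98. With libraries scaled by their size only, the median log2 fold change over tested miRNAs was −0.23 and there were 86 higher and 147 lower. With the 6 references it was 0.21, with 129 and 74.

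The ratio of miR-215-5p to miR-192-5p changed by a log2 of −4.50 (−4.73 to −4.28 with a library left out), that of miR-215-5p to miR-194-5p by −3.96 (−4.04 to −3.88) and that of miR-192-5p to miR-194-5p by 0.54 (0.28 to 0.80). For 2 ratios the sign turned without Sham 2, for miR-215-3p over miR-215-5p (−0.42 with all libraries, −1.05 to 0.20 with a library left out) and for miR-194-2-3p over miR-192-5p (−0.24, or −0.50 to 0.020), and on read counts the ratio of the 3p arms of miR-194 was −0.99, against −1.17 on UMIs. The cause was not tested. The labels pair libraries only by number. Deviations from the group means had a correlation of −0.37 between same-numbered libraries, across 772 miRNAs that are not independent replicates, so the crossed pairing was also run. The replicate block gave 96 higher and 76 lower, and the crossed block 133 and 116, and neither changed a call of the 4 members. The replicate block ended those of miR-194-1-3p (1.26), miR-203-3p (−1.38), miR-200c-3p (−1.36), miR-30a-3p (1.12) and miR-34b-5p (−1.36). Depth limits miR-194-1-3p and miR-194-2-3p most, at 5 to 70 UMIs per library.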
